A study of Mus musculus with 3 samples.

Results

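The cells described here are border macrophages with few transcripts of major histocompatibility complex class II (MHCII), found among the cells of mouse meninges. They were selected on their own transcript counts. A member had at least 0.3% of its unique molecular identifiers (UMIs, each standing for 1 captured RNA molecule) in *Pf4*, *Mrc1*, *Ms4a7*, *Dab2* and *Cbr2*, with 3 or more of these genes detected, and under 1% of its UMIs in *H2-Aa*, *H2-Ab1*, *H2-Eb1* and *Cd74*. Of 7057 cells in 3 libraries, 130 were members and 78 more met the macrophage part of the rule but had at least 1% of UMIs in the MHCII genes. The levels of these 9 genes are therefore a description of the selection.

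Each library was a pool of meninges from 4 male C57BL/6J mice of 10 to 12 weeks, run in its own lane of a droplet chip. Home cage (HC) replicates 1 and 2 came from unstressed mice, and chronic social defeat (CSD) replicate 1 came from stress-susceptible mice after 14 days of CSD, in which the mouse is repeatedly subordinated by an aggressor. The tissue was digested with collagenase D and DNase I and sorted for live, nucleated single cells, with no marker for macrophages. The libraries held 9891861, 8814690 and 10206236 UMIs and 2599, 1702 and 2756 cells, and values of 3 libraries are listed below in that order of the groups, CSD last. The mice within a pool cannot be separated, and with 1 CSD pool the effect of stress and the difference between pools cannot be told apart.

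Border macrophages live in the meninges and around the vessels that enter the brain, outside the tissue that microglia occupy. They take up material from the cerebrospinal fluid through scavenger and mannose receptors such as CD206, encoded by *Mrc1*. Cells with low MHCII often carry LYVE1, a receptor for hyaluronan, and the folate receptor FOLR2, whereas cells with high MHCII load peptides onto MHCII molecules and display them to CD4+ T cells.

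MHCII genes share a promoter module of an X box and a Y box, which the RFX and NF-Y complexes bind and through which the coactivator CIITA acts. The promoters of 2 genes of the rule are shown here with that of *H2-DMb1*, which the rule did not use and which later differed between cells with low and high MHCII. The letters searched on both strands of the 120 bases before each gene's start were AGNAAC followed at once by NGATG for the X box and ATTGG for the core of the Y box, and matches are in capitals. The sequences are from RefSeq on GRCm38.p6, written 5′ to 3′ along the gene's strand, and 8 of the 10 genes looked up were in the table. The window of *H2-Aa* lies at chr17:34287824-34287943 on the minus strand, that of *H2-Eb1* at chr17:34305747-34305866 on the plus strand and that of *H2-DMb1* at chr17:34153071-34153190 on the plus strand.
H2-Aa: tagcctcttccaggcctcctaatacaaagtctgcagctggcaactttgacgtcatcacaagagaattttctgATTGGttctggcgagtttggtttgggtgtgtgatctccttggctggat
H2-Eb1: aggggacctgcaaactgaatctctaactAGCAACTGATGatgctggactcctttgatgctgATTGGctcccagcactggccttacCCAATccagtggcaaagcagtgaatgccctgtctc
H2-DMb1: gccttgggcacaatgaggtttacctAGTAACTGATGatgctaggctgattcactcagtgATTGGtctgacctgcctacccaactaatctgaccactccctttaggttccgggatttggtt
The Y box core was in 6994 of 32851 promoters (21.3%), and the X box letters were in 28 of them (0.0852%), from 27 genes. *H2-Eb1* and *H2-DMb1* were the H2 genes among those 27, and 5 genes held both motifs, these included. *H2-Aa* matched the Y box core but not the X box letters in this window. The X box began 92 bases before the start in *H2-Eb1* and 95 bases before it in *H2-DMb1*. A match is a description of the letters, and the data here do not measure binding.

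The members carried the marker genes of border macrophages and were lower than microglia and monocytes in several genes that mark those cells. *Lyve1* and *Folr2*, which the rule did not use, were present at levels far above those of T and NK cells from the same libraries, which should lack them. Levels are given as counts per 1000000 UMIs (CPM) over the summed cells of a kind in a library. *Lyve1* had 513, 388 and 478 CPM in the members against 0, 5.14 and 0 CPM in T and NK cells. *Folr2* had 378, 388 and 209 CPM against 8.20, 2.57 and 0 CPM. The 3 libraries lay close together for *Lyve1*, and CSD was lowest for *Folr2*. HC replicate 2 contributed only 2 members with 5158 UMIs, against 110 members with 348938 UMIs in HC replicate 1 and 18 members with 33480 UMIs in CSD, so its values rest on few molecules: its 388 CPM of *Lyve1* were 2 UMIs, both from 1 cell.

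Of the genes the rule used, *Pf4*, which encodes a platelet-type chemokine that these macrophages also express, had 3863, 4265 and 4182 CPM (mean 4103 ± 212, SD, n = 3), against 88.2, 20.6 and 31.4 CPM in T and NK cells. *Mrc1* had 883, 969 and 956 CPM. *Cbr2*, a carbonyl reductase, had 616, 388 and 657 CPM. *Dab2*, an endocytic adaptor, had 963, 194 and 1165 CPM and was lowest in HC replicate 2, where 194 CPM is 1 UMI. After every cell was thinned to 500 UMIs, *Pf4* was seen in 91 of 110 members of HC replicate 1 and in 16 of 18 of CSD, against 1 of 175 and 0 of 196 T and NK cells (34 and 11 of them before thinning); the median depth was 3050 and 1786.5 UMIs in the members and 2278 and 2178 UMIs in T and NK cells. All 5 genes were detected in 62 members, 4 in 40 and 3 in 28.

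Further genes of this macrophage type were set beside microglia and monocytes. *Stab1*, a scavenger receptor, had 656, 194 and 747 CPM, against 79.7, 57.3 and 76.7 CPM in microglia and 28.0, 1.38 and 5.80 CPM in monocytes. *Cd163*, the receptor for haemoglobin bound to haptoglobin, had 264, 388 and 59.7 CPM and was at 0 in microglia of all 3 libraries. *F13a1*, a coagulation factor subunit, had 742, 0 and 717 CPM but did not mark the members alone, since monocytes held 568, 540 and 668 CPM. The scavenger receptors *Marco* and *Vsig4* had 0 UMIs in the members.

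*Apoe*, the main lipid carrier of the brain, was the leading transcript of its list of complement and lipid genes, at 36046, 51570 and 42294 CPM in the members against 2859, 1409 and 1227 CPM in microglia. *C1qa*, a chain of complement C1q, was by contrast shared, at 8044, 11826 and 9827 CPM in members and 9318, 8778 and 10873 CPM in microglia. *P2ry12*, the purinergic receptor of microglia, had 71.6, 0 and 59.7 CPM against 2057, 2011 and 1707 CPM. Microglia and monocytes were gated on genes that mark them, so high levels of such genes in them follow in part from the gates. The members thus stood above microglia in *Apoe* in every library and below them in *P2ry12*, with no overlap, while the groups overlapped for *C1qa*. Even so, 14 of 110, 0 of 2 and 6 of 18 members also passed the gate of monocyte genes, and the part of these cells in the CSD differences below was not tested. *Ccr2*, which guides monocytes into tissue, had 22.9, 0 and 29.9 CPM in the members and 350, 314 and 322 CPM in monocytes. No test was run against microglia or monocytes: that comparison was set to need 10 cells of both kinds in each library, a minimum the other comparisons did not have, and HC replicate 2 had 2 members.

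**Figure D1:**
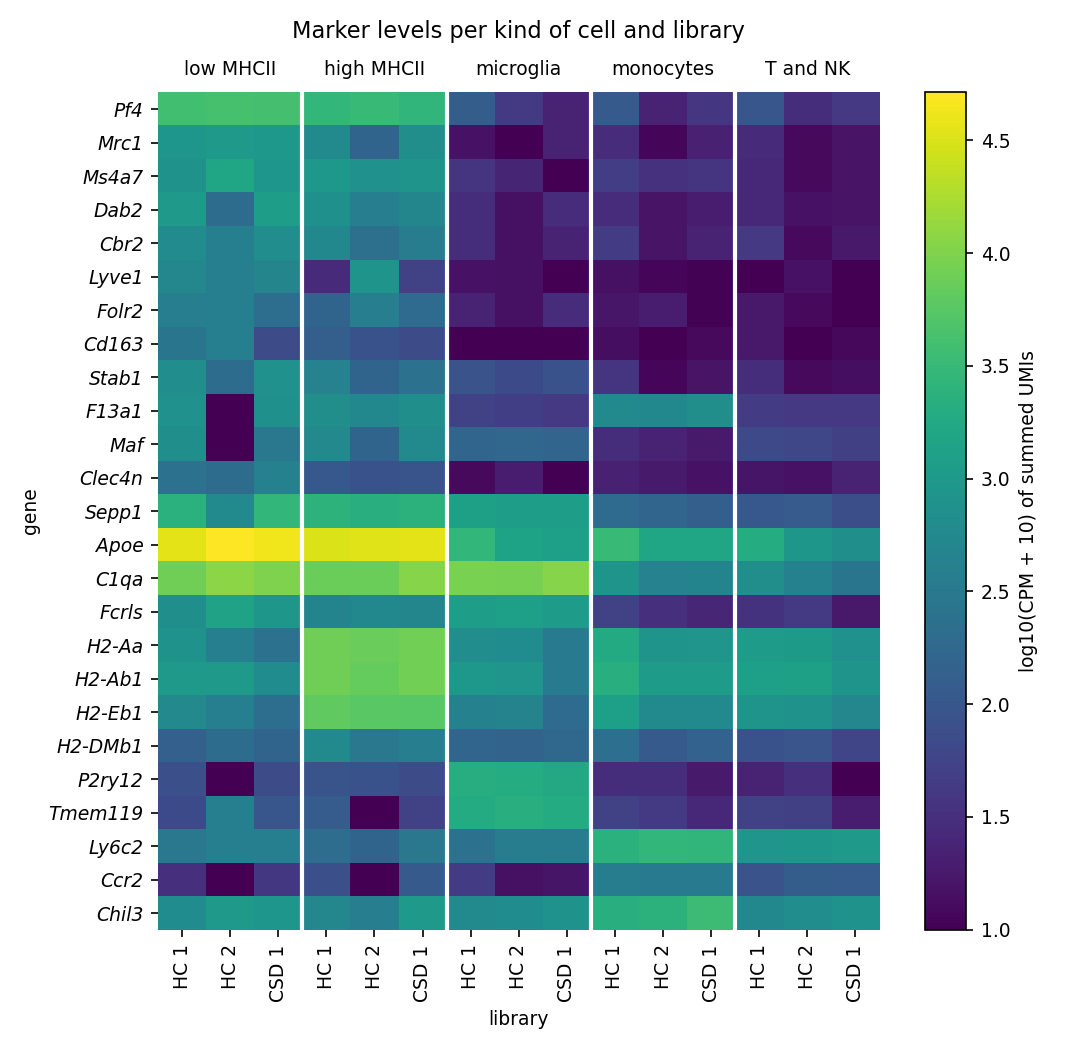
Heat map of levels, as log10(CPM + 10), of 25 genes in 5 kinds of cell from each of the 3 libraries. *Lyve1*, which the rule did not use, is higher in members (513, 388 and 478 CPM) than in T and NK cells (0, 5.14 and 0 CPM). *Pf4* and *Mrc1* are higher in members too (*Pf4* at 88.2, 20.6 and 31.4 CPM in T and NK cells). Both are genes of the rule, and T and NK cells were held low in them, so that difference follows from the selection. *P2ry12* is highest in microglia (2057, 2011 and 1707 CPM), which were gated on genes that mark them.

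The 4 MHCII genes that the rule held low summed to 3614, 2520 and 2389 CPM in the members and to 41475, 37442 and 40529 CPM in border macrophages with high MHCII, a difference that the selection made. *H2-Aa*, an MHCII alpha chain, had 791, 388 and 239 CPM in members and 8132, 7264 and 8381 CPM in border macrophages with high MHCII. *Cd74*, the invariant chain, had 1284, 775 and 1314 CPM in members and 18866, 17598 and 18284 CPM in cells with high MHCII. Free RNA released from broken cells reaches every droplet, and T and NK cells give a measure of it. After thinning, *H2-Ab1* was seen in 33.6% of members of HC replicate 1 and 22.2% of members of CSD, against 30.9% and 18.9% of T and NK cells and 87.5% and 88.9% of cells with high MHCII. The median share of UMIs in the 4 MHCII genes was 0.338%, 0.243% and 0.149% in members and 0.270%, 0.236% and 0.0921% in T and NK cells. The medians were a little higher in members in each library, that of HC replicate 2 resting on 2 members. The summed level went the other way, since T and NK cells had 5082, 5021 and 3528 CPM. The rule capped the members at 1%, whereas single T and NK cells reached 5.00%, 3.55% and 5.58%. Members were thus not clearly above the level in T and NK cells. *Ciita*, which encodes the coactivator of MHCII genes, had 1, 0 and 0 UMIs in the members.

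At the limits of the rule the members ran on into other cells. Between 0.8% and 1% of UMIs in the MHCII genes there were 6 members (0.808% to 0.977%), and between 1% and 1.2% there were 6 cells just outside (1.04% to 1.195%). For the macrophage genes, 15 members had 0.303% to 0.397% of UMIs and 5 cells just outside had 0.233% to 0.295%, and raising the limit to 0.6% left 65, 1 and 11 members.

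**Figure D2:**
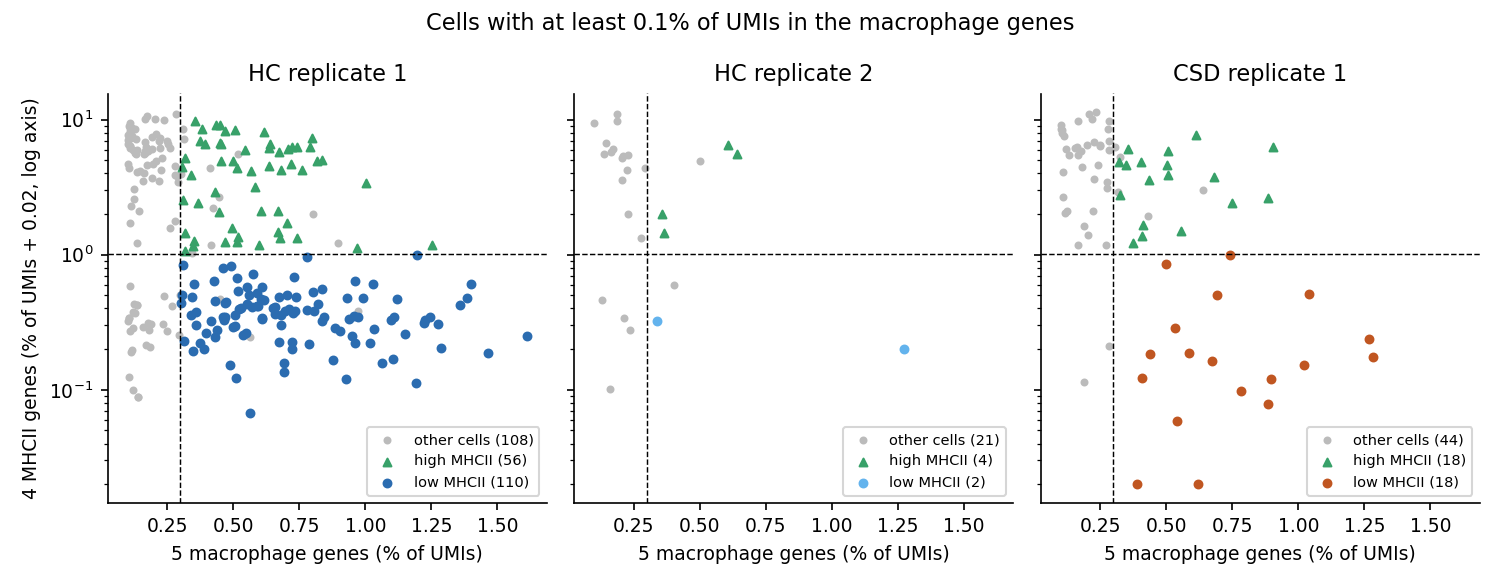
Each point is 1 cell with at least 0.1% of UMIs in the 5 macrophage genes (x axis, percent of UMIs); the y axis, on a log scale, is the percent in the 4 MHCII genes + 0.02. Panels are the libraries and dashed lines are the limits of the rule; 110, 2 and 18 members lie at the lower right.

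The share of cells that were members differed more between the 2 HC pools than between stress groups. Members were 4.23% of cells in HC replicate 1 (exact Clopper-Pearson 95% interval 3.49 to 5.08), 0.118% in HC replicate 2 (0.0142 to 0.424) and 0.653% in CSD (0.388 to 1.03). HC replicate 1 was high and HC replicate 2 low, with CSD between them. The HC mean was 2.17% ± 2.91 (SD, n = 2), and CSD was lower than it by a difference of -1.52 percentage points. Without HC replicate 1 the difference was 0.536 points, in the other direction, and without HC replicate 2 it was -3.58 points. With 3 ways to set 1 library against 2, no permutation test of this difference could reach 0.05.

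HC replicate 1 held 36.0 times the share of HC replicate 2 (exact 95% interval 9.74 to 301, counting error only) and 6.48 times that of CSD (3.92 to 11.3). Border macrophages with high MHCII followed the same order, at 2.15%, 0.235% and 0.653% of cells, and the ratio of the HC libraries was 9.17 (3.39 to 34.8). Between the HC libraries other cells differed less: the ratio of HC replicate 1 to HC replicate 2 was 1.27 (0.978 to 1.66) for microglia, 0.967 (0.750 to 1.25) for monocytes and 1.01 (0.736 to 1.38) for cells passing a gate of fibroblast genes. Against CSD, HC replicate 1 was also higher in cells of the fibroblast gate, 5.62 times (3.46 to 9.57), and in microglia, 2.35 times (1.79 to 3.12), but not in monocytes, 0.768 times (0.621 to 0.949). Against HC replicate 2, CSD was higher in members, 5.56 times (1.33 to 49.4), and lower in microglia, 0.540 times (0.393 to 0.742), and in the fibroblast gate, 0.179 times (0.103 to 0.298). Among macrophages, microglia and monocytes together, members were 22.4% (18.8 to 26.3), 1.01% (0.122 to 3.58) and 5.50% (3.29 to 8.56). Free RNA carried the same order: the 5 macrophage genes had 773, 121 and 293 CPM in barcodes of at most 100 UMIs. In a pool of dissected tissue, fewer cells in the tissue and fewer cells recovered from it cannot be told apart.

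Of all border macrophages, those with low MHCII were 66.3% in HC replicate 1 (58.5 to 73.4), 33.3% in HC replicate 2 (4.33 to 77.7, from 6 cells) and 18 of 36 cells in CSD (interval 32.9% to 67.1%). The intervals of all 3 libraries overlapped.

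**Figure D3:**
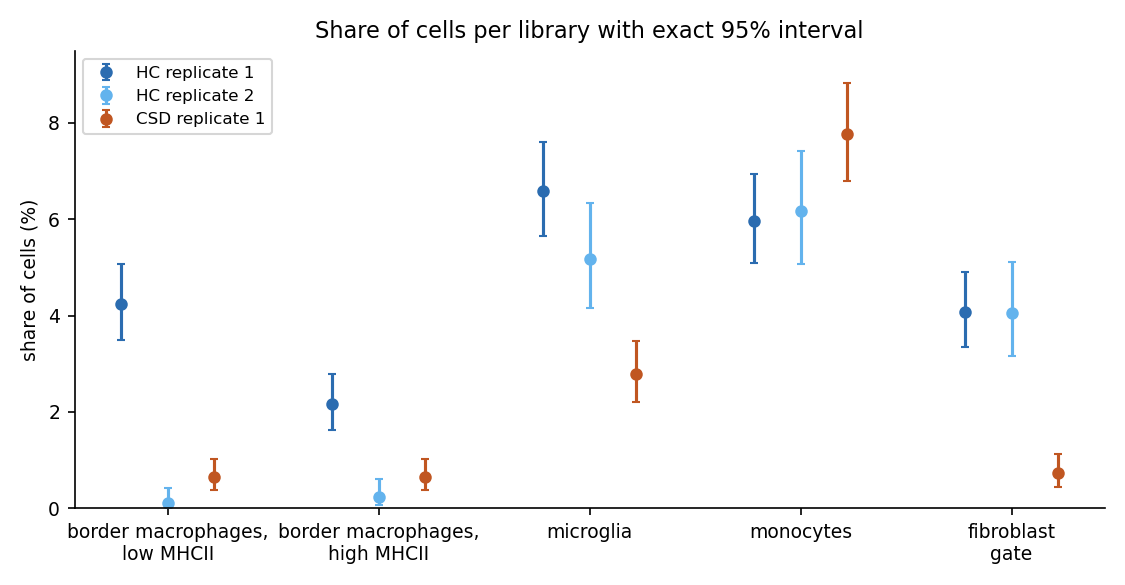
Share of cells in each library (y axis, percent) for members, border macrophages with high MHCII, microglia, monocytes and cells of the fibroblast gate; bars are exact 95% intervals. Members stand at 4.23%, 0.118% and 0.653%, while microglia of the HC libraries stand at 6.58% and 5.17%.

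Members and border macrophages with high MHCII were then compared within the same libraries, to ask what else differs between cells split by 4 MHCII genes. *Lyve1*, *Cyr61*, *Ccl7* and *Adam33* were higher in the members, and *H2-DMa*, *H2-DMb1* and *Clec4b1* were lower. UMIs were summed per library and kind of cell and tested with edgeR with the library as a block. Of 2467 genes tested, none of them a gene of the rule, 7 passed an adjusted p of 0.05 (0.284%), of which 4 were higher in the members (0.162%) and 3 lower (0.122%). The median log2 fold change of all genes was -0.02.

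*Lyve1* had 513, 388 and 478 CPM in members and 17.6, 824 and 41.7 CPM in cells with high MHCII. In HC replicate 1 and CSD it was far higher in members, by 29.2 times (exact 95% interval 9.83 to 143) and 11.5 times (2.69 to 103), whereas HC replicate 2 went the other way, since 1 of its 4 cells with high MHCII held all 11 UMIs. The intervals of gene ratios, here and below, cover counting error only and take UMIs of the same cell as independent. The edgeR quasi-likelihood test gave a log2 fold change of 2.72 ± 0.43 (SE) and a Benjamini-Hochberg adjusted p of 2.36e-07. A UMI of *Lyve1* was seen in 54 of 110, 1 of 2 and 7 of 18 members. A cell without one may still express the gene. After thinning, it was seen in 21 of 110 members of HC replicate 1 and in 1 of 56 cells with high MHCII.

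*Cyr61*, which encodes a secreted matrix protein and is induced early after many stimuli, had 183, 388 and 986 CPM in members and 17.6, 0 and 0 CPM in cells with high MHCII. It was highest in CSD members and at 0 in T and NK cells of all libraries. Its 64, 2 and 33 UMIs came from 27, 1 and 9 members. In HC replicate 1 it was 10.4 times higher in members (3.41 to 51.9), and in CSD at least 15.8-fold higher, against a floor of 3 counts in that library. Its fold change by edgeR was 4.59 ± 0.59 on the log2 scale (adjusted p of 2.84e-11).

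*Ccl7*, a chemokine that draws CCR2-bearing monocytes, had 820, 582 and 3047 CPM in members and 451, 0 and 813 CPM in cells with high MHCII. Members were higher in each library, by 1.82 times in HC replicate 1 (1.41 to 2.37) and 3.75 times in CSD (2.57 to 5.57). In HC replicate 2 this was 3 UMIs against 0. The intervals leave out the spread between cells. In CSD 1 member held 46 of 102 UMIs, and without it members stood at 1779 CPM, still above 813 CPM. By edgeR the log2 fold change was 1.35 ± 0.29 (adjusted p of 0.00186). *Adam33*, a membrane metalloproteinase, had 126, 194 and 358 CPM against 23.4, 0 and 125 CPM (log2 fold change 1.99 ± 0.51, adjusted p of 0.0385 by edgeR). *Ccl2*, a related chemokine, missed the threshold, at 1.13 ± 0.30 and an edgeR adjusted p of 0.0517.

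Both genes of H2-DM, which exchanges peptides on MHCII molecules inside the cell, were lower in the members. *H2-DMb1* had 126, 194 and 149 CPM in members against 586, 300 and 375 CPM in cells with high MHCII. *H2-DMa* had 203, 388 and 418 CPM against 820, 524 and 688 CPM. The 2 kinds did not overlap for either gene. The ratio of members to cells with high MHCII was 0.215 (exact 95% interval 0.147 to 0.310) for *H2-DMb1* and 0.248 (0.184 to 0.332) for *H2-DMa* in HC replicate 1. In CSD it was 0.398 (0.115 to 1.11) and 0.608 (0.301 to 1.17), and in HC replicate 2 0.647 (0.0131 to 6.54) and 0.740 (0.0750 to 3.89), so that outside HC replicate 1 the intervals included 1. T and NK cells held 75.9, 84.9 and 49.1 CPM of *H2-DMb1* and 170, 172 and 137 CPM of *H2-DMa*; the members lay above these in each library. The log2 fold changes were -2.05 ± 0.38 for *H2-DMb1*, adjusted p of 6e-05, and -1.59 ± 0.35 for *H2-DMa*, adjusted p of 0.00269, both by edgeR. *Clec4b1*, a C-type lectin receptor, had 13, 0 and 0 UMIs in members and 28, 2 and 2 UMIs in cells with high MHCII (log2 fold change -2.23 ± 0.52, adjusted p of 0.00899 by edgeR).

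The calls depended on the test and on each library. DESeq2 called only *Cyr61* of the 7, and with macrophage genes at 0.6% or more edgeR called only *Cyr61* and *Lyve1* of them, so the calls of *Ccl7*, *Adam33*, *H2-DMa*, *H2-DMb1* and *Clec4b1* were lost under both. With no filter on the share of cells, edgeR called *Ccl7*, *Cyr61*, *H2-DMa*, *H2-DMb1* and *Lyve1*. Without HC replicate 1, edgeR called only *Cyr61*, without HC replicate 2 only *Lyve1*, and without CSD replicate 1 no gene, with 26 at an unadjusted p under 0.05. The free RNA share was estimated at 42.8%, 24.1% and 26.01% of UMIs in members and 32.5%, 21.6% and 24.8% in cells with high MHCII. Each estimate was made as the level of the neutrophil and B cell gene lists together in the cells, over their level in droplets without cells. In HC replicate 1 the neutrophil list had 49871 CPM in members and 34051 CPM in T and NK cells. The 42.8% may therefore hold more than free RNA. The part of free RNA in the smaller differences was not tested.

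**Figure D4:**
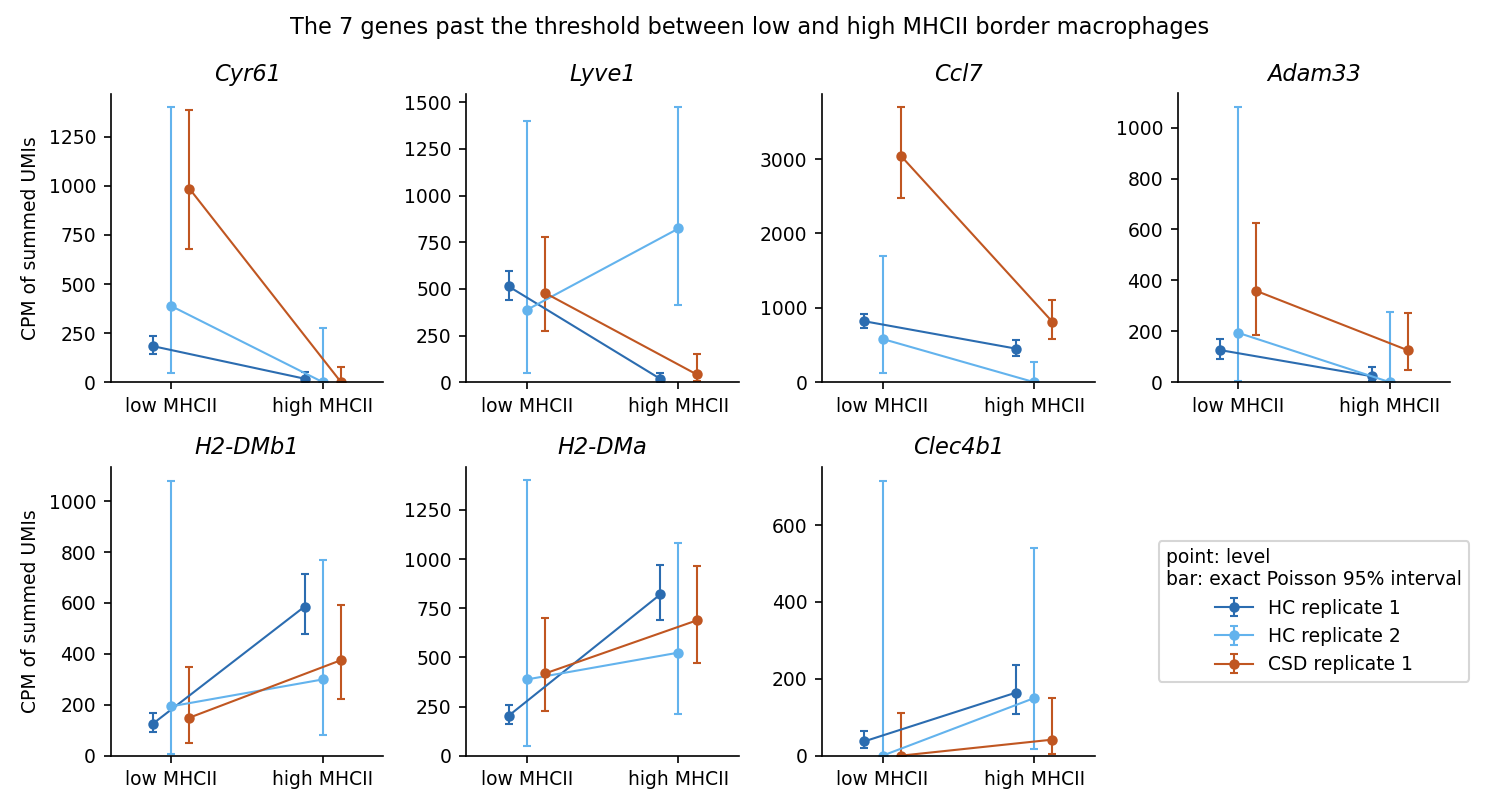
CPM (y axis) in members and in border macrophages with high MHCII of each library, with exact Poisson 95% intervals, for the 7 genes that edgeR called. *Lyve1* stands at 513 against 17.6 CPM in HC replicate 1 and is reversed in HC replicate 2, where 1 cell holds all UMIs of the high group.

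By gene group, scavenger receptor genes were mostly higher in value in the members and MHCII pathway genes mostly lower, with few single genes called. Of 16 scavenger and endocytic receptor genes tested, 13 had a positive log2 fold change and 1 was called (*Lyve1*), with a list median of 0.53 against -0.02 over all genes tested. *Stab1* had 656, 194 and 747 CPM against 428, 150 and 229 CPM in cells with high MHCII, higher in each library (0.86 ± 0.35, adjusted p of 0.545 by edgeR). In HC replicate 2 these levels stand for 1 UMI in members and 2 UMIs in cells with high MHCII. Of 21 border macrophage genes, a list that overlaps the scavenger list and also holds *Lyve1*, 14 were positive, with a median of 0.42 and *Lyve1* as its one call. *Folr2* (0.93 ± 0.36, edgeR adjusted p of 0.457) and *Cd163* (0.99 ± 0.41, adjusted p of 0.569) did not pass. Of 8 genes of the MHCII pathway beyond the rule, *Cd86*, a costimulatory ligand, alone was positive (1.02 ± 0.36, adjusted p of 0.31 by edgeR; with DESeq2 another gene was positive too), 2 were called lower and the median was -0.53. *Ctss*, the protease that trims the invariant chain, had 1814, 3490 and 2419 CPM against 2314, 2546 and 3461 CPM, and the kinds overlapped.

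All 19 immediate early genes tested had a positive log2 fold change, with a median of 0.35, and 1 was called, *Cyr61*. With DESeq2, 18 of the 19 were positive. *Jun*, a subunit of the AP-1 factor, had 1972, 4459 and 2748 CPM in members against 1482, 1647 and 1439 CPM. Of 23 genes of actin dynamics, 3 were positive, none was called and the median was -0.23. With DESeq2, 7 of the 23 were positive. With the profile of droplets without cells subtracted, 22 were tested, 1 was positive, the median was -0.77 and *Actb* was called. *Actb* had 3918, 5428 and 3375 CPM against 4798, 7264 and 4566 CPM and was lower in the members of each library (-0.49 ± 0.19, adjusted p of 0.491 by edgeR). Interferon-stimulated genes were split, 10 of 20 positive with a median of 0.00, and 8 of 13 complement and lipid genes were positive with a median of 0.15.

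Along the share of MHCII transcripts in HC replicate 1, the only library with cells enough for it, *Lyve1* was lower in cells with more MHCII transcripts. From the lowest bin to the highest, holding 29, 63, 18, 15, 9 and 32 cells, *Lyve1* had 715, 463, 391, 65.5, 0 and 0 CPM. *Ccl7* had 1225, 694, 695, 524, 507 and 396 CPM and was present in every bin. *H2-DMa* went the other way, at 158, 195, 326, 655, 888 and 878 CPM. *Pf4* had 3953, 3783, 4085, 2730, 2124 and 3213 CPM and *Apoe* 39053, 35143, 34987, 41501, 41790 and 24818 CPM, with no steady order. The bins with 18, 15 and 9 cells are thin, and the values are a description with no test.

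**Figure D5:**
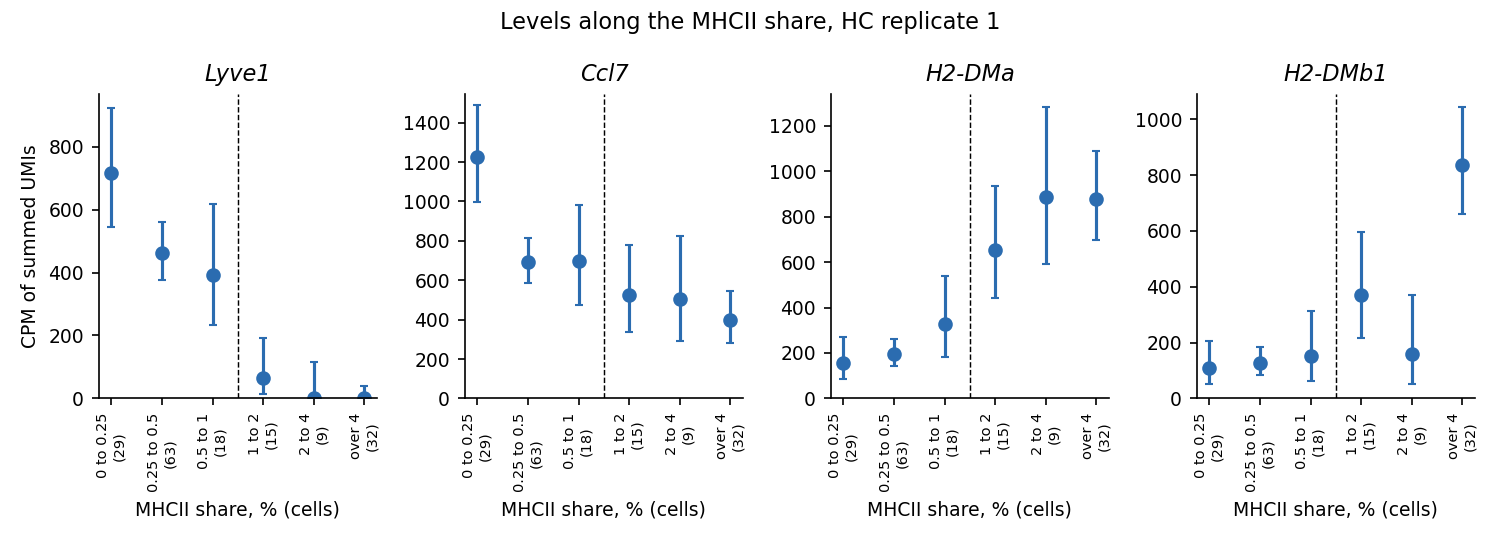
CPM of *Lyve1*, *Ccl7*, *H2-DMa* and *H2-DMb1* (y axis) in border macrophages of HC replicate 1 in 6 bins of the share of UMIs in the 4 MHCII genes (x axis, percent), with exact Poisson 95% intervals. *Lyve1* goes from 715 CPM in the lowest bin to 0 in the 2 highest, and *H2-DMa* from 158 to 878 CPM.

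Members differed among themselves in the detection of these markers. In HC replicate 1, 39 of 110 members held both *Lyve1* and *Folr2*, 15 held *Lyve1* alone, 21 *Folr2* alone and 35 neither. In CSD the counts were 4, 3, 3 and 8 of 18. Members of HC replicate 1 with *Lyve1* had a median of 3338 UMIs and those without it 2713 UMIs. For *Folr2* the medians were 3514 and 2406 UMIs, so depth moved with detection. The part of depth in these counts was not tested. The 2 members of HC replicate 2 were unlike each other: 1 held 19 UMIs of *Pf4*, 5 of *Mrc1* and 2 each of *Lyve1*, *Cbr2* and *Folr2*, and the other 3 of *Pf4* and 0 of the remaining 4 markers.

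Between CSD and HC no gene of the members passed the test, and the gene nearest to the threshold was a chemokine, *Ccl4*. With edgeR, 0 of 2175 genes were called (0.0%), 32 had an unadjusted p under 0.05 and the smallest adjusted p was 0.0925; DESeq2 called 0, with 2 at an unadjusted p under 0.05. The only spread came from the HC pools, with 1 residual degree of freedom, CSD being taken to vary as they do, and p-values measure no more than the spread between these libraries. *Ifitm1*, *Ifit3*, *Cd163* and *Wfdc17*, named below, were chosen after their values were seen.

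*Ccl4*, an inflammatory chemokine, had 436, 194 and 2569 CPM in members, highest in CSD (log2 fold change 2.87 ± 0.70, adjusted p of 0.0925 by edgeR). Of its 86 UMIs in CSD, 81 were in 1 cell, and without that cell CSD stood at 159 CPM, below both HC libraries. T and NK cells held 841, 751 and 685 CPM of it. The difference in *Ccl4* was thus a difference of 1 cell.

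*Ccl7* had 820, 582 and 3047 CPM (2.21 ± 0.68, adjusted p of 0.475 by edgeR). *Ccl2* had 725, 388 and 2300 CPM (2.02 ± 0.68, adjusted p of 0.997). *Ccl12*, another ligand of CCR2, had 2221, 3684 and 5556 CPM (1.36 ± 0.66, adjusted p of 0.997). CSD was above both HC libraries for all 3 chemokines, but 46 of 102, 38 of 77 and 69 of 186 CSD UMIs were in the top cell. Without that cell CSD had 1779, 1239 and 3717 CPM, still above both HC libraries for *Ccl7* and *Ccl2*, and level with HC replicate 2 for *Ccl12*. Without HC replicate 1 the log2 fold changes, which then have no test, were 4.20 for *Ccl4*, 3.04 for *Ccl7*, 3.17 for *Ccl2* and 1.31 for *Ccl12*, and the median over all genes moved to 1.17; without HC replicate 2 they were 2.62, 1.96, 1.73 and 1.39, and the median was -0.05. Of 12 chemokine genes tested, 6 were positive, with a median log2 fold change of 0.01 against 0.02 over all genes.

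*Cyr61*, which marked members against cells with high MHCII, had 183, 388 and 986 CPM and was seen in 27 of 110, 1 of 2 and 9 of 18 members. CSD was highest (2.43 ± 0.72, adjusted p of 0.417 by edgeR). Without its top cell CSD had 737 CPM, still above both HC libraries. After thinning, 9 of 110 members of HC replicate 1 and 6 of 18 of CSD held it. Of 19 immediate early genes, 18 were positive, all but *Atf3*, and the list's median was 0.78, but its summed level in CSD, 21864 CPM, lay between those of the HC libraries, 13452 and 24622 CPM.

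Interferon-stimulated genes, which type I interferon induces in most cells, leaned one way in the members. Of 17 tested, 16 were positive, none was called, and the median log2 fold change was 0.99 against 0.02 over all genes. *Ifitm3*, an antiviral membrane protein, had 1588, 969 and 2360 CPM (1.00 ± 0.67, adjusted p of 0.997 by edgeR). *Ifitm1*, of the same family, had 43.0, 0 and 358 CPM, from 12 of 110, 0 of 2 and 8 of 18 members (3.14 ± 0.84, adjusted p of 0.216). Its level in droplets without cells also differed, at 75.8, 79.4 and 349 CPM, and it was among the 4 genes that differed between CSD and HC there; T and NK cells held 39.0, 18.0 and 84.4 CPM. *Ifitm1* and *Usp18*, the latter chosen after its values were seen, reached the minimum share of member cells only through CSD members, and of the other 15 genes of the list 14 were positive, with a median of 0.94. *Ifit3*, an RNA-binding antiviral protein, had 97.4, 0 and 538 CPM, from 34, 0 and 18 UMIs (2.61 ± 0.77, adjusted p of 0.417). CSD was above both HC libraries for each of them. Without HC replicate 1 the log2 fold changes of *Ifitm3*, *Ifitm1* and *Ifit3* were 1.97, 4.01 and 4.56, with no test and on the same shifted median. HC replicate 2 had 0 UMIs of *Ifitm1* and of *Ifit3*. The size of their fold changes therefore depends on the small count added before taking logs, with no measured HC level. The 33 genes of the list summed to 6706, 5816 and 10783 CPM in members, 5982, 4793 and 8631 CPM in cells with high MHCII, 3791, 3843 and 4613 CPM in T and NK cells and 5250, 4993 and 6316 CPM in droplets without cells, and CSD was highest in each of these. Microglia had 2934, 3009 and 3458 CPM, also highest in CSD, whereas monocytes did not follow, at 8242, 8649 and 8290 CPM.

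MHC class I genes had 9 of 10 positive, a median of 0.46 and summed levels of 5838, 6398 and 8184 CPM, none called. *H2-D1*, a class I heavy chain, had 1264, 969 and 2091 CPM (1.07 ± 0.68, adjusted p of 0.997 by edgeR). The genes that define border macrophages were divided, 10 of 21 positive with a median of -0.36, and so were scavenger genes, 6 of 15 with a median of -0.16. *Lyve1* had a log2 fold change of 0.13 ± 0.74, and *Cd163* had 59.7 CPM in CSD against 264 and 388 CPM in HC (-2.05 ± 1.15, adjusted p of 0.997 by edgeR). Of 14 glucocorticoid-responsive genes 6 were positive, with a median of -0.15; *Tsc22d3*, which encodes GILZ, was not among the 6, at 330, 388 and 239 CPM. Lysosomal genes (12 of 22, median 0.13) and actin genes (14 of 23, median 0.09) were also divided.

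The scale used moved these values. With total UMIs in place of TMM factors the median over all genes was -0.12, and with DESeq2 it was 0.29. Relative to that median, 16 of 17 interferon-stimulated genes stood higher under each of the 3 scalings, at 0.97, 0.96 and 1.11 above it for edgeR with TMM, total UMIs and DESeq2. The median of the immediate early list stood 0.75, 0.73 and 0.41 above it in the same order, with 18, 18 and 16 of 19 genes higher. The medians of the border macrophage and glucocorticoid lists stood below the median of all genes under all 3. For the border macrophage list the distance was -0.38, -0.38 and -0.06 in the same order, so it was small with DESeq2. The median of the scavenger list stood above that of all genes with DESeq2. With total UMIs, edgeR called *Ccl2*, *Ccl4*, *Ccl7* and *Cyr61* higher in CSD and *Wfdc17*, which encodes a secreted protein with a WAP domain, lower.

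Whether CSD differed from HC in another way in members than in cells with high MHCII was tested as an interaction. None of 2467 genes passed with edgeR (0.0%), 11 had an unadjusted p under 0.05, and the smallest adjusted p was 0.693, for *Ccl4*. DESeq2 was not run for the interaction, and edgeR called 0 genes when every gene with a UMI was tested, with 16 at an unadjusted p under 0.05.

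Genes of other lineages were present in the members, and their summed levels are given beside those in T and NK cells or in the lineage itself. The erythroid list summed to 2138, 3296 and 5556 CPM in members and 1937, 3424 and 5316 CPM in T and NK cells, led by the globin *Hbb-bs*. The neutrophil list summed to 49871, 33734 and 45520 CPM, against 34051, 32824 and 45797 CPM, led by *S100a8*. The fibroblast list summed to 1287, 582 and 179 CPM against 609, 723 and 165 CPM, with its leading gene *Mgp* at 777, 194 and 89.6 CPM, of which 1 cell of HC replicate 1 held 126 of 271 UMIs. The members exceeded T and NK cells in neutrophil and fibroblast genes in HC replicate 1. The monocyte list summed to 2287, 1939 and 4092 CPM in members, with *Ms4a6c* leading and *Vcan* at 0, against 9927, 11101 and 12967 CPM in monocytes; CSD was highest here too. Of the dendritic cell genes *Flt3*, *Xcr1*, *Clec9a*, *Itgae* and *Kmo* had 0 UMIs in the members, as did *Sall1* of microglia and 7 of 9 choroid plexus genes. The part of these transcripts in the differences between CSD and HC was not tested.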

How the data were processed

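The authors digested and sorted meningeal cells, made droplet libraries and, per the labels, counted UMIs with Cell Ranger 2 on mm10. The deposited counts are whole numbers for 27998 genes in every barcode, not normalized; 56 symbols are shared by more than 1 gene. Barcodes with at least 500 UMIs, 174 to 4548 genes and under 8.3% mitochondrial UMIs were kept as cells (2599, 1702 and 2756), the gene and mitochondrial limits being those of the study. Scrublet (in scanpy 1.11.5) marked 1.81% and 1.47% of cells in HC at its automatic threshold, and in CSD the top 5.1% of scores were taken instead (5.12%), so these shares are not comparable; 5 members were marked and were kept. No member shared its barcode with a cell of another library; 8, 6 and 3 barcodes of kept cells did, for HC replicates 1 and 2, HC replicate 1 and CSD, and HC replicate 2 and CSD.

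Members and gene lists were chosen with earlier results of these data known. UMIs were summed per library and kind of cell and tested in R 4.3.3 with edgeR 4.0.16 (glmQLFit and glmQLFTest, TMM, two-sided, Benjamini-Hochberg, threshold of 0.05) on genes with a UMI in over 15% of cells, leaving out the 9 genes of the rule; the code was tested on simulated data. Microglia, monocytes and T and NK cells were gated on 3 or more of their genes, at 0.2% of UMIs (monocytes and fibroblasts 0.3%), with under 0.3% in the macrophage genes; fibroblasts only had to miss the macrophage rule. Shares and ratios carry exact 95% intervals (scipy 1.17.1), which cover counting error only. Free RNA was read from barcodes of at most 100 UMIs (7.87%, 24.1% and 5.48% of the libraries' UMIs) and from T and NK cells. Named genes were the given markers, the genes of the rule, those called and changed the same way in all libraries, and the 4 most abundant of each list; *Cd163*, *F13a1*, *Ccr2*, *P2ry12*, *Ciita*, *Ifitm1*, *Ifit3*, *Wfdc17* and the genes named for being at 0 were chosen after their values were seen. Alternatives were other cell limits and thresholds, doublets left out, DESeq2 1.42.0, total UMIs, no filter on genes, thinning to 500 UMIs, free RNA subtracted and libraries left out.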

Additional observations from a re-analysis of the deposited data

How the results depend on the processing

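Depth was a limit: HC replicate 2 gave 2 members and 5158 UMIs, so the spread between HC libraries rests on a sparse sum. A low gene can be at 0 there by counting alone. The share of members in HC replicate 1 was 2.50% with macrophage genes at 0.6% or more and 5.42% with cells passing a T and NK, B, fibroblast, olfactory neuron or erythroid gate left out (4 members of HC replicate 1 and 1 of CSD among them), an alternative chosen after seeing the data without the neutrophil gate, which all 130 members passed so that the planned version left none; monocyte and microglia gates were not applied. Of border macrophages, those with low MHCII were 55.4% in HC replicate 1 with MHCII genes under 0.5% and 68.8% in CSD with macrophage genes at 0.6%. Between CSD and HC, where 0 genes were called, edgeR called 1 with MHCII under 0.5% (*Ccl4*), 1 with the empty-droplet profile subtracted (*Ngp*) and 5 with total UMIs. Between low and high MHCII, where 7 were called, the count was 3 with macrophage genes at 0.6%, 12 with the MHCII share of T and NK cells subtracted, 15 with Scrublet doublets left out, 1 with DESeq2, 13 with total UMIs and 19 with the empty-droplet profile subtracted, also chosen after seeing the data, of which 15 were lower in the members; of the 7, these shared 2, 6, 7, 1, 7 and 6. Leaving out 1 library gave 0 to 1 calls. Thinned to 500 UMIs, 430 genes were tested between low and high MHCII and 5 were called. Of these, 2 were among the 7, *H2-DMa* and *Lyve1*. The causes were not tested. No called value of a named gene changed sign. *Lyve1* between CSD and HC, 0.13 and not called, ranged to -0.06 with total UMIs, and *Folr2* between low and high MHCII, 0.93 and not called, was -0.03 without HC replicate 1. Of 173 values between CSD and HC for 12 genes, 6 newly passed the threshold. Another 159 kept their side of it or, where a library was left out and no test was run, moved by no more than the spread. The other 8, all without HC replicate 1 and with no test, moved by more than the spread (*Ccl4*, *Ccl7*, *Ccl2*, *Ifitm3*, *Ifitm1*, *Ifit3*, *H2-D1* at 1.80 and *Lyve1* at 0.96), where the median over all genes was 1.17. For *Ifitm1* and *Ifit3* the remaining HC library had 0 UMIs, so their size there depends on the count added before taking logs. Of 204 values between low and high MHCII for 13 genes, 156 kept their side, 40 no longer passed and 8 newly passed. No paired analysis was possible between CSD and HC, because the pools came from different mice and the labels match no HC pool to the CSD pool. Low and high MHCII cells come from the same pools, and with no replicate block 7 genes were called, 4 of them among the 7. Tests against microglia and monocytes and their alternatives were not run, because that comparison was set to need 10 cells of both kinds in each library.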
